A study of Homo sapiens with 4 samples.

Results

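Hedgehog signaling was examined through 8 of its components, PTCH1, SMO, GLI1, GLI2, GLI3, SUFU, HHIP and GAS1, in wildtype and RUNX3 knockout HGC-27 cells. The genes were chosen by symbol, as the receptor, transducer, transcription factors, inhibitors and a co-receptor of the pathway, and all 8 were found among the 25559 gene symbols of the count tables. HGC-27 is a line of human gastric cancer cells. The RNA-seq comprised 2 wildtype control libraries (wt) and 2 libraries from cells of the same line with RUNX3 knocked out (RUNX3KO), made with Cas9 delivered by a lentivirus, puromycin selection and single-cell cloning. Neither the number of clones nor whether replicates were separate cultures is stated, so that the spread between the libraries of a group may be technical, and a difference between RUNX3 KO and control cells cannot be told apart from a difference between a clone and the parental line.

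In the Hedgehog pathway, a secreted ligand binds the membrane protein PTCH1, which otherwise holds the transmembrane protein SMO inactive. Active SMO, working at the primary cilium, releases the zinc finger transcription factors GLI1, GLI2 and GLI3 from SUFU, an inhibitor that retains them in the cytoplasm. GLI2 is mainly an activator, GLI3 is mainly processed into a repressor, and GLI1 is an activator that is itself a target of the pathway. PTCH1 and HHIP, which binds and sequesters ligands, are also targets and so act as feedback inhibitors, whereas GAS1 is a membrane co-receptor for the ligand. In the gut, the epithelium sends the ligand and the mesenchyme around it carries most of the response.

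The libraries held 11731401 to 12110876 reads on genes each. For RUNX3 itself 351 and 308 reads were counted in the controls, against 225 and 185 in RUNX3 KO cells, lower without overlap but not lost (log2 fold change -0.70), and its call was lost without RUNX3 KO replicate 2 (-0.55, edgeR adjusted p = 0.0649). An edit by Cas9 can leave a transcript that yields no protein, so read counts do not measure the loss of the protein. The markers of the line were checked as well. Of 8 epithelial and gastric genes, KRT8, CDH1 and KRT18 exceeded 3 counts in a library, EPCAM had at most 1 count, and KRT19, CDX1, MUC5AC and TFF1 were at 0 in all 4. Their summed level was 2.80 to 2.96 CPM (read counts scaled for sequencing depth with edgeR's TMM factors) in control and 8.81 to 10.6 CPM in RUNX3 KO libraries. The keratin gene KRT8 rose from 19 and 11 counts to 72 and 81 (log2 fold change 2.33, edgeR adjusted p = 1.9e-13), and CDH1, which encodes E-cadherin, from 15 and 21 to 30 and 32 (0.77, edgeR adjusted p = 0.0238). KRT18 had 0 counts in both controls and 2 and 14 in RUNX3 KO libraries. VIM, the mesenchymal vimentin gene checked with them, fell from 57834 and 57486 counts to 33828 and 35307 (-0.75). Of 12 blood, endothelial and fibroblast genes, 8 exceeded 3 counts in a library. CD3E, PECAM1, CDH5 and HBB were at 0, whereas the fibroblast genes DCN and LUM had between 1368 and 1843 counts. HBA1, a hemoglobin gene, rose from 81 and 74 counts to 139 and 154 (log2 fold change 0.90, edgeR adjusted p = 6.67e-08). The summed level of these 12 genes was 346 to 347 CPM in control and 252 to 257 CPM in RUNX3 KO libraries. Of the fibroblast genes, PDGFRA fell from 324 and 328 counts to 69 and 62, and DCN and LUM also fell (log2 fold change -0.39 and -0.42). The level of the epithelial genes was thus low in both groups but higher in RUNX3 KO cells, and that of VIM and the fibroblast genes lower. The part of these changes in the results given next was not tested.

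Of the 8 components, 4 were lower in RUNX3 KO cells at an adjusted p under 0.05 and none was higher (edgeR's quasi-likelihood test over 12967 genes, with Benjamini-Hochberg adjustment, which gave every adjusted p that follows unless another tool is named). GLI1, GLI3, HHIP and GLI2 fell, in that order of size. PTCH1, SMO, SUFU and GAS1 did not pass the test. In CPM the groups did not overlap in 5 of the 8 components, against 72.7% of all tested genes. A lack of overlap in a single gene is thus common in these libraries. Many genes differed between these 2 groups, since 48.9% of all tested genes passed the same threshold, 24.4% as lower and 24.5% as higher, so that 4 called genes of 8 is a share near that background. No component was higher at an unadjusted p under 0.05 either, and the number of components called higher was 0 with DESeq2, edgeR's exact test and limma-voom as well. The median log2 fold change of the 8 genes was -0.10, against -0.0021 over all tested genes. By the criteria of the study, a fold change of at least 2 with a p of at most 0.05, GLI1 alone was called, where 6.12% of tested genes were, 4.01% as lower and 2.11% as higher.

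**Figure D1:**
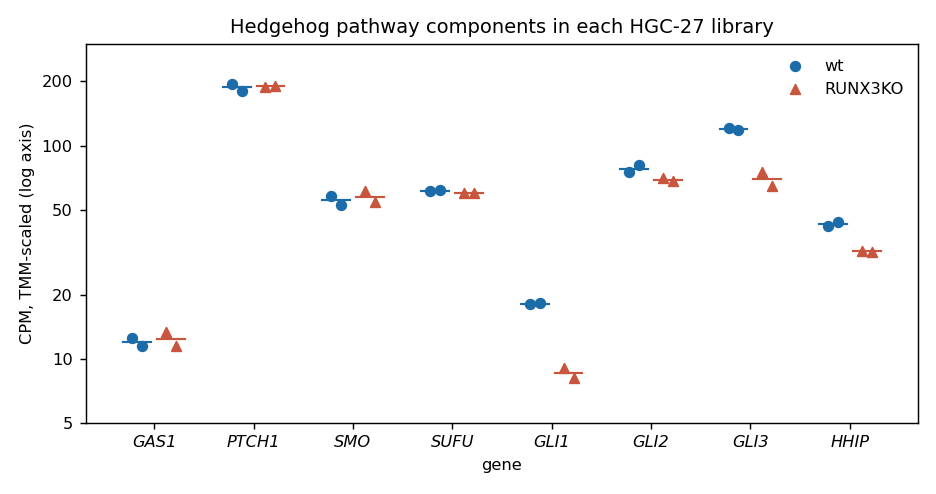
Level of each Hedgehog component in every HGC-27 library, in CPM on a log axis, with points for the 2 libraries of a group and a bar for their mean. GLI1, GLI2, GLI3, SUFU and HHIP are without overlap between groups, with GLI1 showing the widest gap, whereas the points of GAS1, PTCH1 and SMO overlap. A lack of overlap, here in 5 of the 8 components, was found for 72.7% of all tested genes.

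PTCH1, the ligand receptor, spans 98205262 to 98279339 of chromosome 9 (GRCh37, minus strand). Reads counted on it numbered 2289 and 2137 in the controls against 2229 and 2290 in RUNX3 KO cells, so the groups overlapped. Its level of 187 ± 9.05 CPM (SD, n = 2) in control cells stood beside 190 ± 1.15 CPM (SD, n = 2) after RUNX3 KO. On the log2 scale the change was 0.017 (SE 0.0359, edgeR adjusted p = 0.732), with a 95% interval from -0.055 to 0.088. Its sign turned without control replicate 2, to -0.034.

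Although GLI1, HHIP and PTCH1 are all known as GLI targets, they did not move alike in these libraries. The start regions of PTCH1 and HHIP are shown as description only. Whether their letters bear on that difference was not tested. RefSeq windows of 300 bases (250 before and 50 after a start site, GRCh38.p14) were at hand for 6 of the 8 genes, 11 windows in all, and for neither GLI1 nor GLI3. Both strands were searched for TGGGTGGTC, the consensus to which GLI factors bind, and for TGTGGT, the core to which RUNX factors bind, and the letters of these motifs do not overlap in the windows. The GLI letters occurred in 1 of the 11 windows, at one of the 5 PTCH1 starts, and in 0.236% of 35116 windows of all genes. The RUNX letters occurred in 0 of the 11, and in 13.1% of all windows. The 250 bases before the PTCH1 start with the match (chr9:95509267-95509516, minus strand) and before the HHIP start (chr4:144645906-144646155, plus strand) follow, 5′ to 3′, with the match in capitals, which begins 172 bases before the start site.
PTCH1: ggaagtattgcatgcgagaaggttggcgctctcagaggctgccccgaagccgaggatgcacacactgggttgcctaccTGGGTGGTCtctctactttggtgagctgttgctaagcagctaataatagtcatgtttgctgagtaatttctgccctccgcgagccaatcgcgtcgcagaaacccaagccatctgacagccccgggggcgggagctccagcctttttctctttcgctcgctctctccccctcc
HHIP: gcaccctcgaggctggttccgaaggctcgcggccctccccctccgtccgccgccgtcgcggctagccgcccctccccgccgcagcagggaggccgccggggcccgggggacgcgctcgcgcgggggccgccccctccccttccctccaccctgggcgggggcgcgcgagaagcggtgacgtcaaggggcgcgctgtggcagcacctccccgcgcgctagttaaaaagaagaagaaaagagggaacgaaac
The HHIP stretch has a GC content of 74.8%, against 57.2% in the PTCH1 stretch. The PTCH1 stretch was picked from 5 windows because it held the match, so this contrast depends on that choice. These matches are descriptions of letters in short windows and not of binding.

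GAS1, the co-receptor, spans 89559277 to 89562421 of chromosome 9 (minus strand). It was among the least abundant components, with 148 and 136 reads in the controls and 157 and 138 after RUNX3 KO. The groups overlapped, and the log2 change was 0.042 (SE 0.123, edgeR adjusted p = 0.811), with a 95% interval from -0.20 to 0.29. A change of the size seen in GLI2 would lie inside this interval, so it was not detectable at this depth.

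SMO, the transducer, spans 128828474 to 128853386 of chromosome 7 (plus strand) and had 686 and 622 reads in the controls against 722 and 652 after RUNX3 KO. The higher library of each group exceeded the lower library of the other. The log2 change was 0.058 (SE 0.0613, edgeR adjusted p = 0.457), with a 95% interval from -0.064 to 0.18. SUFU, the inhibitor of GLI factors, spans 104263729 to 104393292 of chromosome 10 (plus strand). It was the steadiest component, with 725 and 727 reads in the controls and 707 and 724 after RUNX3 KO. In CPM both RUNX3 KO libraries lay just below the controls, at 59.9 and 60.2 against 61.4 and 61.6. The log2 change was -0.034 (SE 0.0568, edgeR adjusted p = 0.651), with a 95% interval from -0.15 to 0.079.

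GLI1, the activator that reports pathway output in many tissues, changed most. The gene spans 57853568 to 57866051 of chromosome 12 (plus strand). Control libraries held 212 and 215 reads of it, RUNX3 KO libraries 107 and 97. Both RUNX3 KO libraries thus lay far below both controls. The level fell from 18.1 ± 0.185 CPM (SD, n = 2) to 8.57 ± 0.705 CPM (SD, n = 2). This was a 2.11-fold fall, or -1.08 on the log2 scale (SE 0.121, edgeR adjusted p = 1.07e-12). Among all tested genes, 5.31% changed at least as much in either direction. Without RUNX3 KO replicate 2 the log2 change was -1.0, just short of 2-fold, so no component was then called at a fold change of 2. Its fall in itself passed the adjusted p in every alternative run, with adjusted p-values up to 0.0221.

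GLI3, a regulator that acts largely as the pathway's repressor, spans 42000547 to 42303699 of chromosome 7 (minus strand). Control libraries held 1431 and 1388 reads of it, RUNX3 KO libraries 891 and 776, again without overlap. The level fell from 119 ± 2.54 to 70.0 ± 7.74 CPM (SD, both n = 2). The log2 change was -0.77 (SE 0.0497, edgeR adjusted p = 5.45e-25), a 1.71-fold fall, and 9.38% of tested genes changed at least as much. With each library left out in turn, it ranged from -0.88 to -0.66. GLI3 is also on the study's supplementary lists of target genes of active RUNX3 sites, which give an expression change beside each gene, so the direction of its change here is not independent evidence of that listing.

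GLI2, the main activator, spans 121493199 to 121750229 of chromosome 2 (plus strand). Control libraries held 887 and 955 reads of it, RUNX3 KO libraries 827 and 823. The groups did not overlap, but the gap was small. The log2 change was -0.17 (SE 0.0526, edgeR adjusted p = 0.00434), a 1.13-fold fall. This call was lost with DESeq2 (adjusted p = 0.130) and with edgeR without a filter on low counts (adjusted p = 0.0601). Without that filter the log2 change was also -0.17, and 27.8% of the genes then tested were called, against 48.9% with it. The GLI2 call was also lost without control replicate 2 or either RUNX3 KO replicate, with log2 changes of -0.12, -0.19 and -0.16.

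HHIP, the decoy that binds Hedgehog ligands outside the cell, spans 145567308 to 145666423 of chromosome 4 (plus strand). Control libraries held 495 and 517 reads of it, RUNX3 KO libraries 379 and 381. The level fell from 42.9 ± 1.33 to 31.9 ± 0.297 CPM (SD, both n = 2), with no overlap. The log2 change was -0.43 (SE 0.0727, edgeR adjusted p = 4.87e-07), a 1.34-fold fall, and it stayed between -0.46 and -0.40 in the other fits. An antisense gene, HHIP-AS1, shares 813 bases of its exons with HHIP, or 6.81% of the HHIP exon bases. Whether strand was used in counting is not given in the sources used here, so a part of these counts cannot be assigned to a strand. The shares for PTCH1, SMO and GLI1 were 4.11%, 2.72% and 0.11%, and 0 for the other 4.

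**Figure D2:**
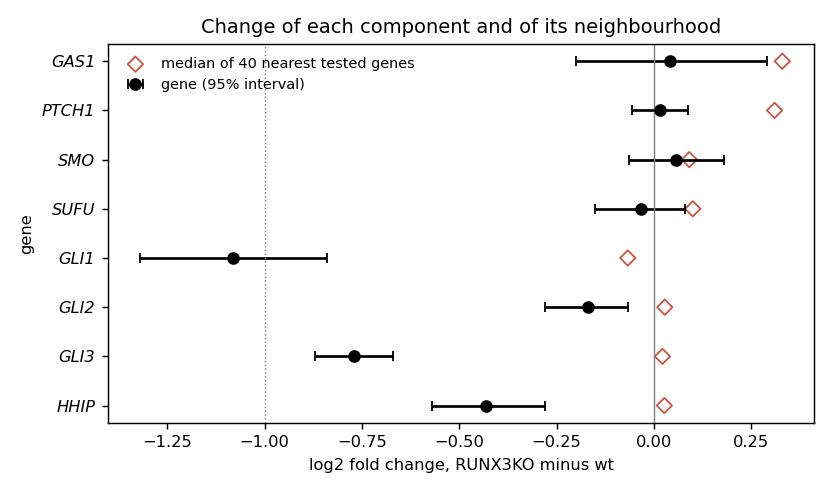
Log2 fold change of each component (RUNX3 KO minus control, filled points with 95% intervals) and the median log2 fold change of its 40 nearest tested genes (open diamonds), with dotted and solid vertical lines at a 2-fold fall and at no change. GLI1, GLI3, HHIP and GLI2 lie below zero while their neighbourhoods lie near it, and PTCH1 and GAS1 lie near zero while their neighbourhoods lie at 0.31 and 0.33.

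The surroundings of the genes differed. For GLI1, GLI3, HHIP and GLI2 the 40 tested genes that lie closest, 20 to either side, had a median log2 fold change of -0.067, 0.022, 0.027 and 0.028. Around GLI1, 26 of 40 genes had a value below 0. At an adjusted p under 0.05, 15 of these 40 fell and 4 rose. Among all tested genes, 24.4% fell and 24.5% rose. Only 1 of these 40 genes fell as much as GLI1 did, and 4 of 40 around GLI3 fell as much as GLI3. Around PTCH1, 33 of 40 genes had a value above 0, with a median of 0.31, and 26 of the 40 rose at an adjusted p under 0.05. Around GAS1, also on chromosome 9, 35 of 40 had a value above 0, with a median of 0.33, and 29 of the 40 rose, against 24.5% of all tested genes. Neither PTCH1 nor GAS1 passed the test. With the neighbourhood median subtracted, PTCH1 and GAS1 both came to -0.29 and GLI1 to -1.01. No test was made on these differences.

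Ratios of raw counts within a library do not depend on scaling. The GLI1 count was 9.26% and 10.1% of the PTCH1 count in the controls, against 4.80% and 4.24% after RUNX3 KO. The HHIP count was 21.6% and 24.2% of the PTCH1 count in the controls, against 17.0% and 16.6% after RUNX3 KO. In both ratios the RUNX3 KO libraries lay below the controls without overlap, and the 95% intervals of the log2 changes of GLI1 (-1.32 to -0.84), HHIP (-0.57 to -0.28) and PTCH1 did not overlap. The differences among the 3 genes were not tested further. With 2 libraries against 2 the smallest two-sided p of an exact permutation test is 0.333, so it cannot reach 0.05 and no such test was run on the ratios. The background for libraries without overlap is wide, since 72.7% of tested genes showed none in CPM.

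The balance among the GLI factors shifted as well. GLI3 had 1.61 and 1.45 times the counts of GLI2 in the controls, against 1.08 and 0.943 times after RUNX3 KO. Per kb of the MANE Select transcript, GLI3 made up 48.9% and 46.8% of the summed level of the 3 GLI genes in the controls, against 42.6% and 39.8% after RUNX3 KO. GLI2 went from 35.7% and 37.9% to 46.6% and 49.7%, and GLI1 from 15.3% in both controls to 10.8% and 10.5%. By this length the highest share was that of GLI3 in both control libraries and that of GLI2 in both RUNX3 KO libraries, but the order depended on the length used. Per kb of all annotated exons, chosen after seeing the data, GLI2 was highest in every library, with 43.3% and 45.6% in the controls and 54.9% and 57.9% after RUNX3 KO. By counts alone GLI3 was still above GLI2 in RUNX3 KO replicate 1. GLI2 itself did not rise. These are RNA levels, and the processed and full-length forms of the GLI proteins were not measured.

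**Figure D3:**
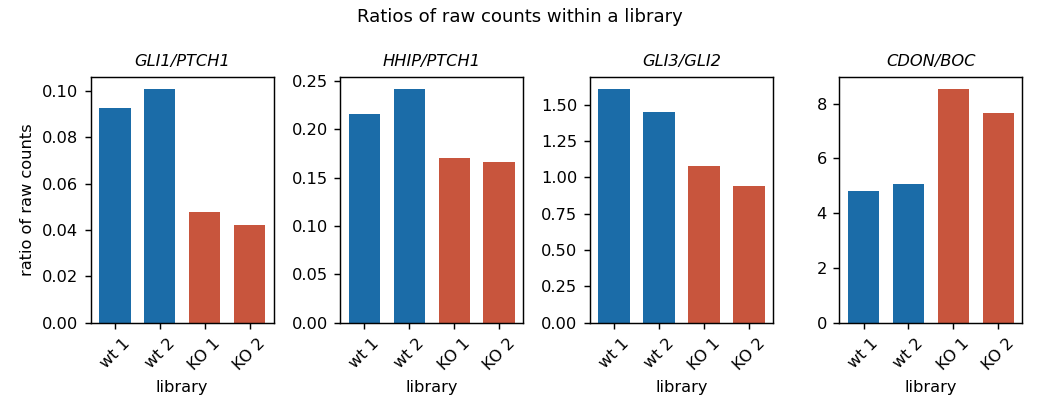
Ratios of raw counts in each library (bars from 0, blue for control and red for RUNX3 KO), for GLI1 over PTCH1, HHIP over PTCH1, GLI3 over GLI2, and CDON over BOC, which are co-receptors. The first 3 ratios are lower in both RUNX3 KO libraries, and the ratio of CDON to BOC is higher, at 8.54 and 7.66 against 4.82 and 5.05.

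Levels between genes were compared per transcript length, in CPM per kb. In control cells PTCH1 was highest, at 21.6 ± 1.04 CPM per kb (SD, n = 2). GLI3 (14.2 ± 0.302) and SMO (13.9 ± 0.960) followed and did not differ beyond their spread. SUFU (12.3 ± 0.0275) and GLI2 (10.9 ± 0.574) came next, and GLI1 (4.55 ± 0.0466), HHIP (4.31 ± 0.134) and GAS1 (3.83 ± 0.227) were lowest in CPM per kb. In RUNX3 KO cells PTCH1 stayed highest, at 21.9 ± 0.133 CPM per kb, with SMO, SUFU and GLI2 at 14.5 ± 1.23, 12.0 ± 0.0453 and 9.71 ± 0.160. GLI3 moved from rank 2 to rank 5, at 8.33 ± 0.921 CPM per kb, and GLI1 from rank 6 to rank 8, at 2.16 ± 0.178. The order rests on 1 transcript per gene and would move with another choice of length.

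The genes whose pattern over the 4 libraries was nearest to that of GLI1, by the Euclidean distance between log2 CPM values centered on each gene's mean, were MARCKS (distance 0.0270), GPRC5B (0.0377) and FLRT1 (0.0654). MARCKS, a membrane-bound substrate of protein kinase C, had 1540 and 1552 counts in the controls, against 775 and 692 after RUNX3 KO. This is likeness over 2 groups only.

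The other genes of the pathway were taken from lists by role. The ligand genes were silent or nearly so. SHH was at 0 in all 4 libraries, and IHH and DHH had at most 1 count in any library, where a count of 0 allows up to 3 counts, or 0.254 CPM in control replicate 1. Of 7 genes for ligand processing and release 4 were tested, of which 1 fell, 1 rose and 2 did not pass, so that 50% were called, near the 48.9% of all tested genes. DISP2, which encodes a relative of the ligand exporter DISP1, changed by -0.72 on the log2 scale (SE 0.261), from 37 and 40 counts to 22 and 25. This call was lost with DESeq2 (adjusted p = 0.233), without control replicate 2 (-0.67) and without RUNX3 KO replicate 1 (-0.64) or 2 (-0.80).

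Among surface receptors and co-receptors, 2 of 4 tested genes fell and 1 rose, so that 75% were called, against 48.9% of all tested genes. CDON and BOC, related co-receptors for the ligand, went in opposite directions. CDON rose from 795 and 838 counts to 1008 and 980, a log2 change of 0.27 (SE 0.0517, edgeR adjusted p = 5.85e-06). BOC fell from 165 and 166 counts to 118 and 128, a log2 change of -0.44 (SE 0.123, edgeR adjusted p = 0.00170). In neither gene did the groups overlap, but CDON lost its call without RUNX3 KO replicate 1 (log2 fold change 0.24), and BOC with DESeq2 (adjusted p = 0.0933) and without either RUNX3 KO replicate (-0.39 and -0.49). LRP2, a large endocytic receptor that can bind the ligand, fell from 82 and 99 to 59 and 59 counts (log2 fold change -0.63, SE 0.173), a call that was lost with DESeq2 (adjusted p = 0.0877), without control replicate 2 (-0.49) and without RUNX3 KO replicate 1 (-0.64) or 2 (-0.62).

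Of 25 tested cytoplasmic and nuclear regulators, 5 fell, 12 rose and 8 did not pass, so that 68% were called where 48.9% of all tested genes were, with a median log2 change of 0.09 and no change of 2-fold. ZIC2, a zinc finger factor related to the GLI family, changed most, from 229 and 214 counts to 135 and 147 (log2 fold change -0.66, SE 0.111). Of 19 tested genes listed under ciliary transport, a loose heading that also took in SMURF1, 2 fell, 5 rose and 12 did not pass. This is 36.8% called, a share below the 48.9% of all tested genes. TMEM231, of the ciliary transition zone, rose by 0.84 (SE 0.133), BBS4, of the complex that moves cargo in the cilium, by 0.62 (SE 0.0981), IFT140, of the intraflagellar transport machinery, by 0.59 (SE 0.115), and TULP3, an adaptor that brings receptors into the cilium, by 0.50 (SE 0.0571) on the log2 scale. BBS4 lost its call without RUNX3 KO replicate 2 (0.57, adjusted p = 0.0530).

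The genes reported elsewhere as GLI targets did not move one way. Of 30 listed, 20 were tested, and 7 fell, 6 rose and 7 did not pass, with a median of -0.13. This is 65% called, against 48.9% of all tested genes. TBX3, a T-box factor, fell from 871 and 969 counts to 510 and 497 (log2 fold change -0.88, SE 0.0600). IGF2, a growth factor, was lower in both RUNX3 KO libraries, with 18 counts in each against 30 and 28, but its call at edgeR (adjusted p = 0.0432) did not hold in several alternatives. NR2F2, a nuclear receptor, rose from 308 and 289 counts to 569 and 592 (log2 fold change 0.95, SE 0.0746). WNT2B, a WNT ligand, rose from 5 and 2 counts to 29 and 20 (log2 fold change 2.75, SE 0.461), and entered the test through its RUNX3 KO counts. Its log2 change ranged from 2.25 without control replicate 2 to 3.52 without control replicate 1. 3 further genes were chosen after their values were seen. The forkhead factors FOXF1 and FOXF2, which act in gut mesenchyme, changed by -0.48 (SE 0.109) and -0.34 (SE 0.105), and the ligand BMP4 by 0.61 (SE 0.0561) on the log2 scale. The call of FOXF2 was lost with DESeq2 (adjusted p = 0.137), without control replicate 2 (-0.28) and without RUNX3 KO replicate 1 (-0.28) or 2 (-0.41).

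Over the 72 tested genes of these lists, 17 fell, 25 rose and 30 did not pass, which is 58.3% called, against 48.9% of all tested genes. The median log2 fold change was 0.0018. The numbers of calls depended on the test and on single libraries, with 9 lower and 18 higher genes under DESeq2, and 7 lower and 12 higher genes without RUNX3 KO replicate 2. Over all tested genes the calls became fewer too, at 28.5% with DESeq2 and 20.1% without that library.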

How the data were processed

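RNA-seq was carried out on 4 libraries of HGC-27 cells, 2 wt and 2 RUNX3KO, grouped by their sample titles. The authors deposited raw counts of reads per gene symbol, without normalization, as 25559 gene rows and 5 rows of reads without a gene. These 5 rows held 25.9% to 28.1% of all counts and entered neither library sizes nor tests. The sources differ on how the counts were made. The methods name STAR and FeatureCounts with GENCODE, whereas the submitters' processing notes name HISAT2 2.1.0 and HTSeq, and both name hg19.

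Genes were kept with filterByExpr (minimum count 10, minimum total 15), scaled by TMM and compared with glmQLFit and glmQLFTest of edgeR 4.0.16 in R 4.3.3 (prior count 0.125), without a replicate block and with Benjamini-Hochberg adjustment over 12967 genes. Standard errors were taken as the absolute log2 change over the root of its F statistic. Averaged over genes, the replicates of a group differed by little more than counting noise (chi-square per degree of freedom of 1.22 and 1.18). Depth thus sets most of the error shown, but single genes can vary more. GLI3 had 891 and 776 counts in RUNX3 KO libraries, further apart than the 1431 and 1388 in controls. Its SE was 0.0497 with edgeR, which shares variance across genes, and 0.0833 with DESeq2. At this depth genes with few counts are imprecise, and intervals do not cover differences between clones.

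The components and lists were chosen with earlier results of these data known. The genes named were all 8 components, RUNX3, CDON, BOC and the ligands, in each list up to 4 called genes with a log2 fold change of at least 0.5 in size, and the 3 genes nearest in pattern to the component that changed most. FOXF1, FOXF2 and BMP4 were added after their values were seen. The values of one more gene of the lists are not reported here, though it is included in the counts. Positions and MANE Select lengths came from GENCODE on GRCh37, with 93.2% of tested genes matched by symbol or synonym. The fit was tested on simulated counts of 12805 genes. Of genes changed by 0.5 on the log2 scale 81 of 99 were recovered, and of those changed by 1, 98 of 101, with 10 false calls. Far fewer genes changed there than were called here, so the simulation does not show how the fit behaves in data like these. Alternatives were other scalings, filters, a prior count of 2, a replicate block, DESeq2 1.42.0, edgeR's exact test, limma-voom (limma 3.58.1), leaving out each library and subtracting the neighbourhood median.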

Additional observations from a re-analysis of the deposited data

How the results depend on the processing

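The falls of GLI1, GLI3 and HHIP kept their direction and their adjusted p under 0.05 in all alternatives with a test, with log2 fold changes from -1.16 to -1.0, -0.88 to -0.66 and -0.46 to -0.40. The number of components called lower was 3 or 4. By a fold change of 2 it was 1, or 0 to 1 with a library left out. Among the other pathway genes, DESeq2 called 9 lower, against 17, and 18 higher, against 25. With each library left out in turn, 7 to 16 were lower and 12 to 23 higher. The fits that leave out a library assume that the lone library of a group varies like the others. Over all tested genes, 42.1% and 41.5% were called without control replicate 1 or 2, and 22.8% and 20.1% without RUNX3 KO replicate 1 or 2, against 48.9% with all libraries.

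PTCH1, SMO and GAS1, which were near no change, turned sign, whereas SUFU stayed below 0. PTCH1 went to -0.0032 with library size alone, -0.004 with upper-quartile scaling and -0.034 without control replicate 2. Those 2 scalings moved the median of all tested genes alike, from -0.0021 to -0.0221 and -0.0228. SMO went to -0.013 and -0.028, and GAS1 to -0.02 and -0.065, without control replicate 2 and without RUNX3 KO replicate 1. When libraries were left out one at a time, the highest values were 0.067 for PTCH1, 0.14 for SMO and 0.14 for GAS1. None of these passed an adjusted p of 0.05. RUNX3 fell by 0.55 on the log2 scale without RUNX3 KO replicate 2 and then lost its call (edgeR adjusted p = 0.0649). IGF2 lost its call in 8 alternatives, and DISP2 in 4, with adjusted p-values up to 0.338 and 0.233. The cause was not tested. With the replicate number as a block, 4 components were lower and 17 and 25 other genes lower and higher, as without it. The labels give no shared origin for libraries with the same number, and the deviations of the pairs from their group means correlated at 0.0161 over genes. Subtraction of the neighbourhood median moved PTCH1 and GAS1 to -0.29 and SUFU to -0.14. Depth limits GAS1, GLI1 and the low pathway genes most.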
